A study of Arabidopsis thaliana with 12 samples.

Results

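The 10 genes described here encode enzymes of the Calvin cycle of the chloroplast and the small protein CP12-2, which binds 2 of these enzymes. They are *GAPA1*, *GAPA2*, *GAPB*, *PRK*, *FBA1*, *FBA2*, *SBPASE*, *HCEF1*, *TKL1* and *CP12-2*, chosen by their AGI identifiers, and all 10 were found among the 22670 genes of the deposited tables. RNA came from whole *Arabidopsis thaliana* seedlings at 5 days, all in the Columbia-0 background and grown without sugar, with 2 replicates for each of 6 groups and 12 libraries in all. The groups were *ubp22-1* (L), *det1-1ubp22-1* (L), *det1-1* (L), *det1-1* (D), WT (L) and WT (D). The seedlings marked L had 16 h of light and 8 h of darkness per day, and those marked D stayed in darkness. *DET1* represses photomorphogenesis, and *det1-1* seedlings develop in darkness much like seedlings in light. *UBP22* encodes a deubiquitinase of histone H2B, *ubp22-1* is an insertion line and the double mutant came from a cross. Each library pooled about 12 whole seedlings, so fewer green cells and less of a transcript per cell cannot be told apart.

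The values used are the authors' means over 8 libraries at a time, in normalized counts, which are read counts divided by a size factor for the depth of each library. The light-only set holds *ubp22-1* (L), *det1-1ubp22-1* (L), *det1-1* (L) and WT (L). The light-and-dark set holds *det1-1* (D), WT (D), *det1-1* (L) and WT (L), so 4 libraries are common to both. No value of a single library or group was used, so the mutated genes could not be checked group by group, the depth of each library is unknown, and no error or test can be given for any level or ratio below. The sum of the means was 30521230 over 22400 genes in the light-only set and 28625198 over 22318 genes in the light-and-dark set.

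In the Calvin cycle, Rubisco joins CO2 to ribulose bisphosphate, and the product is reduced to triose phosphate with ATP and NADPH from the light reactions. Aldolases, bisphosphatases and transketolase then rebuild the acceptor, and phosphoribulokinase adds the last phosphate. Several of these enzymes are switched on by thioredoxin in light, and CP12 holds glyceraldehyde phosphate dehydrogenase and phosphoribulokinase in an inactive complex in darkness.

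Transcripts of all 10 genes were abundant in both sets. Together they took 2.65% of the mean normalized total in the light-only set and 1.97% in the light-and-dark set. The share of the 50 highest genes of each set, most of the 10 among them, was also larger in the light-only set. It was 21.9% there and 16.5% in the light-and-dark set. Per kilobase of the longest annotated transcript, the highest of the 10 was the 15th and the lowest the 148th among 22249 genes in the light-only set. In the light-and-dark set they lay between the 10th and the 287th among 22163 genes. The levels of the 10 genes per kilobase spanned 6.98-fold in the light-only set and 9.32-fold in the light-and-dark set.

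**Figure D1:**
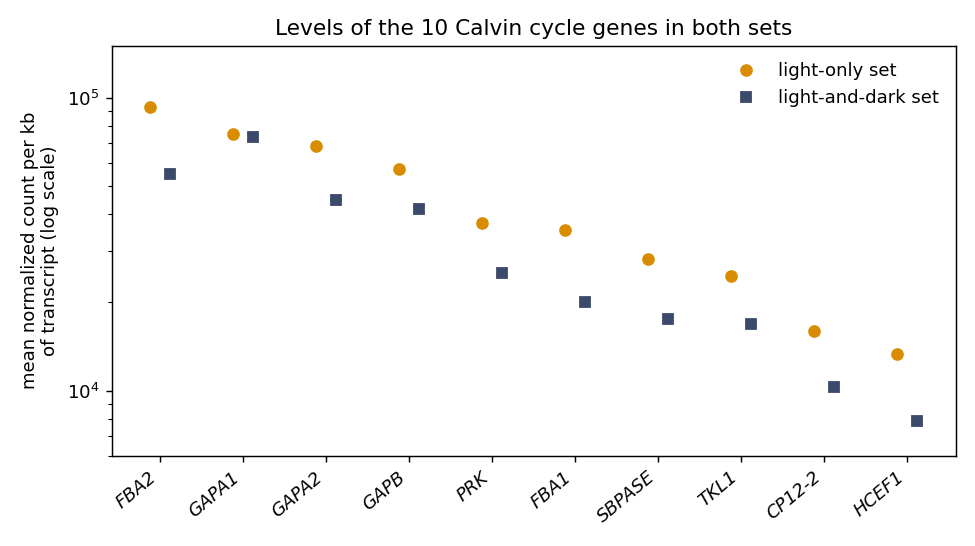
Mean normalized count per kilobase of transcript (log axis) for the 10 genes in the light-only set (circles) and the light-and-dark set (squares), each point being the authors' mean over 8 libraries, with no error available. *FBA2* leads in the light-only set at 92979 and *GAPA1* in the light-and-dark set at 73236, while *HCEF1* is lowest in both.

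The light-only set stood above the light-and-dark set for 9 of the 10 genes relative to the median gene, and *GAPA1* was the exception, nearly level and slightly above without this scaling. As both sets were normalized separately, ratios were recentred on the median of the 19958 genes with a mean of at least 10 in both, a shift of 0.0967 on the log2 scale. All 10 genes passed this minimum. The median log2 ratio of the 10 was 0.52, against 0 for all genes by construction, and the middle of the genome between the 25th and the 75th percentile ran from -0.34 to 0.29. A ratio more than 1.2-fold higher in the light-only set was found for 9 of the 10 genes and for 27.5% of all genes (5492 higher, with 5858 or 29.4% more than 1.2-fold lower). Without recentring 7068 genes were higher and 4760 lower by this measure, and again 9 of the 10 genes were higher. More than 1.5-fold higher were *FBA1*, *FBA2*, *HCEF1* and *SBPASE*, 4 of the 10, against 8.87% of all genes, with *SBPASE* just inside at 1.503-fold and *CP12-2* just outside at 1.449-fold. Without recentring, *CP12-2* and *GAPA2* also passed 1.5-fold, which makes 6 of the 10, against 2589 of the 19958 genes. A gene silent in darkness and equal in every light library would reach 2-fold at most in this ratio. The 1.2-fold threshold was chosen for this reason, with earlier results of these data known. These shares are descriptions, since both sets contain the same WT (L) and *det1-1* (L) libraries. What remains different between the sets is *ubp22-1* (L) and *det1-1ubp22-1* (L) on one side and *det1-1* (D) and WT (D) on the other, and in this ratio light and the *ubp22-1* mutation cannot be told apart.

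**Figure D2:**
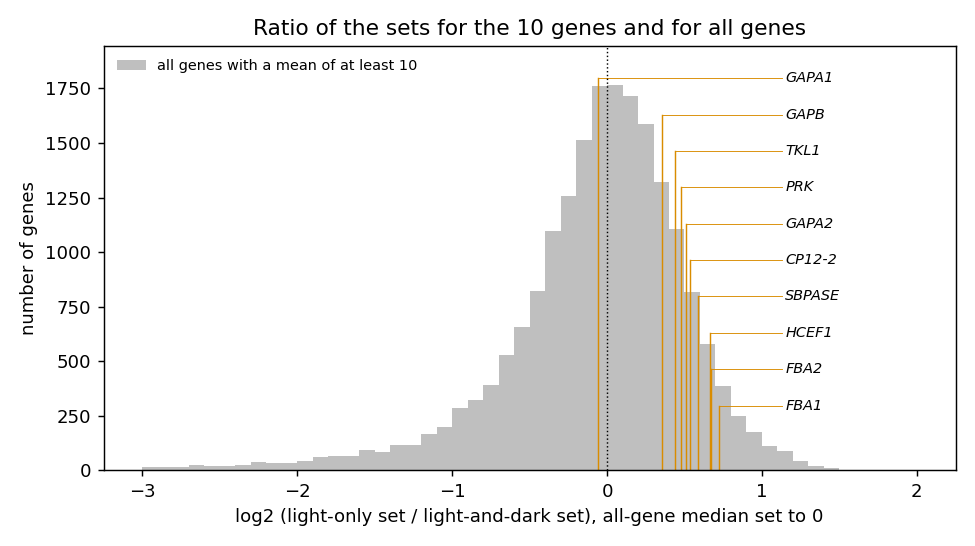
Histogram of the log2 ratio of the light-only set over the light-and-dark set for genes with a mean of at least 10 in both (grey, the far tails lie outside the axis), with the median of all genes at 0 and a vertical line for each of the 10 genes. The lines of 9 genes lie between 0.36 and 0.72, and that of *GAPA1* lies at -0.06 (0.04 as deposited).

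*GAPA1*, *GAPA2* and *GAPB* encode subunits of the NADPH-dependent glyceraldehyde phosphate dehydrogenase, the reducing step of the cycle. *GAPA1* (AT3G26650, chromosome 3 of TAIR10.1 from 9794862 to 9797045, plus strand, 5 exons) had a mean of 131703 normalized counts in the light-only set and 128310 in the light-and-dark set. Its recentred log2 ratio was -0.06, at the 44.7th percentile of all genes, and as deposited, without recentring, the ratio was 0.04, so its direction turns with the scaling. *GAPA2* (AT1G12900, chromosome 1 from 4392438 to 4394454, minus strand, 5 exons) had 106814 in the light-only set and 70172 in the light-and-dark set. Its log2 ratio was 0.51, so *GAPA2* differed between the sets where its close relative *GAPA1* was nearly level. Per kilobase, *GAPA1* made up 52.4% of the *GAPA1* and *GAPA2* transcripts in the light-only set and 62.1% in the light-and-dark set. The difference between the log2 ratios of the pair, 0.57, does not depend on the scaling of the sets. *GAPB* (AT1G42970, chromosome 1 from 16127353 to 16129895, plus strand, 9 exons) encodes the subunit with a regulatory tail related to CP12. It had 105345 normalized counts in the light-only set and 76994 in the light-and-dark set, a log2 ratio of 0.36 and the lowest of the 9 genes that stood higher. The level per kilobase of both *GAPA* genes together was 2.52 times that of *GAPB* in the light-only set and 2.84 times in the light-and-dark set.

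The 250 bases before the annotated start of *GAPA1* and *GAPA2*, which encode the same subunit, are shown from the RefSeq TAIR10.1 assembly. They run 5′ to 3′ on the strand of the gene. *HCEF1* is shown beside them as the only 1 of the 10 genes whose window holds each of the 3 motifs named next. Capitals mark the G-box CACGTG, which light-signalling bZIP and bHLH factors bind, the I-box GATAAG and the motif AACCAA, on either strand. The windows are chr3:9794612-9794861 for *GAPA1*, chr1:4394455-4394704 for *GAPA2* (minus strand) and chr3:20016587-20016836 for *HCEF1*.
GAPA1: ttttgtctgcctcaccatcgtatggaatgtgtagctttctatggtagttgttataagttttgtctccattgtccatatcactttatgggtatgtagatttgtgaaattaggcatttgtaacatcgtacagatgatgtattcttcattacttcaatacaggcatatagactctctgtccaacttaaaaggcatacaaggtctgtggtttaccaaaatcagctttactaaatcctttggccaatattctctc
GAPA2: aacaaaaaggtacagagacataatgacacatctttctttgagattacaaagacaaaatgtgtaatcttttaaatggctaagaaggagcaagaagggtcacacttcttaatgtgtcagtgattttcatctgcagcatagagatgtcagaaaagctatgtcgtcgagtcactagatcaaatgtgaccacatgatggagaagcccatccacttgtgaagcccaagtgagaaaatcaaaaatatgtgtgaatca
HCEF1: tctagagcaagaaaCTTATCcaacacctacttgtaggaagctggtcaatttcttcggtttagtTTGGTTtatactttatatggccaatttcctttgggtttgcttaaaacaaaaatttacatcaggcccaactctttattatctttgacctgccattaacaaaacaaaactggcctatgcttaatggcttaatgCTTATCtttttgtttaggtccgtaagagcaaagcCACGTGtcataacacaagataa
Neither *GAPA* window holds any of the 3 motifs, while the *HCEF1* window holds each of them, with the G-box starting 22 bases before the annotated start. Over the 10 genes, CACGTG was found in 2 windows (*PRK* and *HCEF1*), GATAAG in 2 (*HCEF1* and *CP12-2*) and AACCAA in 3 (*SBPASE*, *HCEF1* and *CP12-2*). The windows of *FBA1* and *FBA2*, with the highest ratios of the 10, held none, nor did those of *GAPB* and *TKL1*. Whether the motifs go with the ratios was not tested. Of 27443 windows of the same length before protein-coding genes, 6.49% held CACGTG, 12.3% GATAAG and 29.9% AACCAA. These matches are descriptions of the windows and not binding sites.

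Reads from stretches that close relatives share may not be placed on 1 gene with certainty. Of the stretches of 50 bases, the read length, in the *GAPA1* transcript, 40 of 1703 (2.35%) matched *GAPA2* with at most 2 mismatches. The *FBA1* transcript shared 44 of 1912 stretches with *FBA2* (2.30%) and *TKL1* shared 22 of 3147 with *TKL2* (0.699%). The other 5 transcripts, of *GAPB*, *PRK*, *SBPASE*, *HCEF1* and *CP12-2*, shared none with any of the 37 related genes searched.

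The aldolases cleave and join sugar bisphosphates in the rebuilding of the acceptor, and their genes gave the highest ratios of the 10. *FBA2* (AT4G38970, chromosome 4 from 18163496 to 18166008, minus strand, 7 exons) had 164014 normalized counts in the light-only set and 96338 in the light-and-dark set, with a log2 ratio of 0.67. *FBA1* (AT2G21330, chromosome 2 from 9128122 to 9130619, minus strand, 6 exons) had 69454 in the light-only set and 39434 in the light-and-dark set, with a log2 ratio of 0.72 at the 95th percentile of all genes. The pair kept nearly the same balance: *FBA2* made up 72.4% of their transcripts per kilobase in the light-only set and 73.1% in the light-and-dark set.

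The bisphosphatases remove a phosphate in steps that commit carbon to regeneration, and their genes differed in level more than in ratio. *SBPASE* (AT3G55800, chromosome 3 from 20709294 to 20711640, plus strand, 8 exons), for sedoheptulose bisphosphatase, had 49212 normalized counts in the light-only set and 30614 in the light-and-dark set, with a log2 ratio of 0.59. *HCEF1* (AT3G54050, chromosome 3 from 20016837 to 20018822, plus strand, 4 exons), for the chloroplast fructose bisphosphatase, had 21607 in the light-only set and 12732 in the light-and-dark set, with a log2 ratio of 0.67. Per kilobase *HCEF1* was the lowest of the 10 genes, at 13330 in the light-only set and 7855 in the light-and-dark set.

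The products of *TKL1* and *PRK* act in the rebuilding of the acceptor, that of *PRK* in its last step. Transketolase moves 2-carbon units between sugars, and *TKL1* (AT3G60750, chromosome 3 from 22453668 to 22457458, plus strand, 7 exons) had 78507 normalized counts in the light-only set and 54067 in the light-and-dark set, with a log2 ratio of 0.44. Its relative *TKL2* was far lower, so that *TKL1* held 98.2% of their transcripts per kilobase in the light-only set and 98.4% in the light-and-dark set. *PRK* (AT1G32060, chromosome 1 from 11532199 to 11534639, plus strand, 5 exons), the single phosphoribulokinase gene listed, had 70707 in the light-only set and 47548 in the light-and-dark set, with a log2 ratio of 0.48.

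*CP12-2* (AT3G62410, chromosome 3 from 23090944 to 23091580, plus strand, 1 exon) encodes the linker between the dehydrogenase and phosphoribulokinase. It had 10162 normalized counts in the light-only set and 6558 in the light-and-dark set, with a log2 ratio of 0.54. Its relative *CP12-1*, singled out after its values were seen, had 14544 in the light-only set and 15537 in the light-and-dark set, with a log2 ratio of -0.19 when recentred and -0.10 as deposited. The difference between the log2 ratios of *CP12-1* and *CP12-2*, 0.73, does not depend on the scaling of the sets. Another relative, *CP12-3*, also named after its values were seen, had a log2 ratio of -0.24 at a far lower level. Its means were 298 in the light-only set and 328 in the light-and-dark set. Per kilobase, *CP12-1* stood at 0.999 times the level of *CP12-2* in the light-only set and at 1.65 times in the light-and-dark set.

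With the shared libraries taken out, the ratios can be written as differences. If the recentring places the 4 shared libraries at the same level in both sets, they cancel. As each set mean covers 8 libraries of which 4 are shared, 2 times the difference of the set means gives the mean of the 4 libraries of *ubp22-1* (L) and *det1-1ubp22-1* (L) minus the mean of the 4 libraries of *det1-1* (D) and WT (D). This difference between the 4-library means was 114091 normalized counts for *FBA2* and 59438 for *GAPA2*. It was 5890 for *CP12-2* and -10286 for *GAPA1*, the only value below 0 among the 10, whose ratio lies above 0 without recentring.

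Other genes of the cycle, its relatives and 2 thioredoxins formed a second list of 17, of which 14 were kept because the reference pairs their identifiers with the listed symbols. Of these 14, 10 were more than 1.2-fold higher in the light-only set, none was more than 1.2-fold lower and 4 lay between. Among all genes, 27.5% were higher and 29.4% lower by this measure. The median log2 ratio of the 14 was 0.41. The 3 dropped identifiers, listed as *CFBP2*, *PGK2* and *RPI3*, were named after their values were seen. They had log2 ratios of 0.06, 0.64 and 0.51. *RBCS1A*, for a Rubisco small subunit, had 964991 normalized counts in the light-only set and 699072 in the light-and-dark set, with a log2 ratio of 0.37. *RBCS3B*, for another small subunit, had 314676 in the light-only set and 190446 in the light-and-dark set, with a log2 ratio of 0.63. *RCA*, the activase of Rubisco, had 470184 in the light-only set and 313172 in the light-and-dark set, with a log2 ratio of 0.49. The other Rubisco small subunit genes, *RBCS1B* and *RBCS2B*, named after their values were seen, had log2 ratios of 0.67 and 1.00, so that the 4 small subunit genes ran from 0.37 to 1.00 around the median of 0.52 of the 10 Calvin cycle genes.

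A further list held the cytosolic forms and other relatives that do not work in the cycle, with 9 of 11 genes kept. Of those kept, 6 genes were more than 1.2-fold higher in the light-only set, 1 was lower and 2 lay between (against the same 27.5% and 29.4% of all genes), with a median log2 ratio of 0.38. The 2 dropped identifiers, listed as *CYFBP* and *PGK3* and named after their values were seen, had log2 ratios of -0.32 and 0.43. *CYFBP* was thus also more than 1.2-fold lower. *GAPC2* and *GAPC1*, for the dehydrogenase of cytosolic glycolysis, had log2 ratios of 0.22 and 0.41, and *TPI*, for the cytosolic triose phosphate isomerase, had 0.19. The kept gene that was lower was *FBA6*, a cytosolic aldolase singled out after its values were seen. *FBA6* had 2077 normalized counts in the light-only set and 4261 in the light-and-dark set, a log2 ratio of -1.13. The other aldolases of this list, *FBA5*, *FBA8* and *FBA7*, were also named after their values were seen. They had log2 ratios of 0.61, 0.45 and 0.27, on the same side as *FBA1* and *FBA2*.

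**Figure D3:**
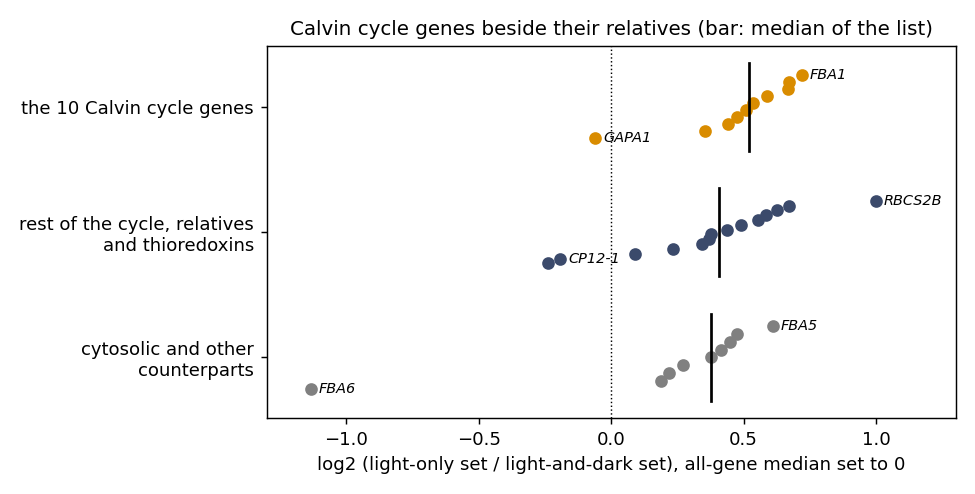
Log2 ratio of the light-only set over the light-and-dark set, recentred, for the 10 Calvin cycle genes (top), the rest of the cycle with relatives and thioredoxins (middle) and the counterparts outside the cycle (bottom), with 1 point per gene and a bar at the median of each list. The medians are 0.52, 0.41 and 0.38, and *GAPA1*, *CP12-1* and *FBA6* lie at -0.06 (0.04 as deposited), -0.19 and -1.13.

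Markers of seedling tissues were present in both sets, and most stood more than 1.2-fold apart between the sets. This was common among all genes too, of which 27.5% were higher and 29.4% lower by this measure. The 3 markers of green tissue, *LHCB1.2*, *LHCB1.3* and *LHCA1*, summed to 466779 normalized counts in the light-only set and 347662 in the light-and-dark set, and *LHCB1.3* had a log2 ratio of 0.00 where *LHCB1.2* had 1.08. The 3 markers of the root endodermis, *CASP1*, *CASP5* and *SCR*, summed to 2542 in the light-only set and 4477 in the light-and-dark set, with log2 ratios of -3.81 for *CASP5*, -1.05 for *CASP1* and 0.05 for *SCR*. Without *CASP5* the sums were 2417 in the light-only set and 2837 in the light-and-dark set. The 2 root hair markers summed to 509 in the light-only set and 247 in the light-and-dark set. The 3 markers of the stomatal lineage summed to 501 in the light-only set and 339 in the light-and-dark set. No marker was at 0, and their part in the ratios of the Calvin cycle genes was not tested.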

How the data were processed

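RNA-seq libraries (single reads, poly(A)-selected, TruSeq stranded kit per the labels) were base-called with CASAVA 1.8, mapped by the authors to TAIR10 with STAR and counted per gene with HTSeq. Up to 2 mismatches were allowed, and the strand setting of the counting is not given in the sources used here. The signal in the deposited tables is the mean normalized count of a gene: the authors divided counts by a DESeq2 size factor per library and averaged them over 8 libraries. It is identical in every table of a set (4 and 3 tables). The other 5 columns of each of the 7 tables hold the authors' own comparisons (fold changes, standard errors, statistics and p-values) and were not used, so no group was tested against another. The 1 entry per table that is a total over genes was left out.

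Levels were divided by the longest annotated transcript in the RefSeq annotation of TAIR10.1, which need not be the annotation the authors counted on. Ratios were taken with Python 3.11.15, pandas 2.3.3 and NumPy 2.4.6, with a minimum mean of 10, and recentred on the median. The recentring was checked on simulated data with few changed genes, all of them higher. That check does not cover the real sets, where many genes differed in both directions. Alternatives were no recentring, equal totals, a minimum of 0 or 100, a threshold of 1.5-fold, coding length and a total without the 50 highest genes. All 10 genes are named, with up to 3 others per list by level per kilobase. Exceptions are marked, apart from *TKL2*, which is named as the relative of *TKL1*. Genes, lists and the 1.2-fold threshold were chosen with earlier results of these data known. Identifiers that the reference did not pair with the listed symbol (5) were dropped.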

Additional observations from a re-analysis of the deposited data

How the results depend on the processing

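The count of 9 of the 10 genes more than 1.2-fold higher in the light-only set was the same without recentring, with equal totals and with no minimum count, and fell to 4 with a threshold of 1.5-fold, which 1771 of all genes passed. With 1.5-fold and no recentring, a setting chosen after seeing the data, 6 of the 10 and 2589 of all genes passed. The median log2 ratio of the 10 genes was 0.619 without recentring, 0.526 with equal totals, 0.524 with no minimum count and 0.537 with a minimum of 100, against 0.522. Higher genes made up 48.4% of all genes past 1.2-fold in either direction, and 59.8% without recentring; past 1.5-fold the shares were 37.4% and 51.7%. The median level per kilobase was 36400 in the light-only set and 22600 in the light-and-dark set, and 58700 and 36400 per kilobase of coding length, by the construction of a shorter length. The 50 highest genes include 7 of the 10 in the light-only set and 6 in the light-and-dark set. Without them, the 3 genes left took 0.34% of the total in the light-only set. In the light-and-dark set the 4 genes left took 0.374%. *FBA1* was left only in the light-and-dark set, so these shares cover different genes and cannot be compared. No paired analysis was possible because the columns used carry no replicate number. For the same reason no replicate could be left out, and the precision of every mean is unknown.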
